A study of Mus musculus with 24 samples.

Results

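miR-199a, miR-199b and miR-214 are 3 microRNAs (miRNAs) known for their high expression in fibroblasts and other mesenchymal cells, and they were followed here through mammary tumor progression in mice. They were chosen by name as 3 of the 510 miRNAs in the deposited count table, where they are listed as mir-199a, mir-199b and mir-214, and all 3 were among the 237 miRNAs that passed the filter on low counts. The libraries hold small RNA of whole mammary tissue from PyMT mice, which are FVB mice heterozygous for a polyoma middle T transgene under the MMTV promoter, and from FVB control mice without the transgene. The MMTV promoter drives the oncoprotein in the mammary epithelium, so that the transformed cells are epithelial and the mesenchymal cells around them are not the target of the transgene. PyMT tissue was hyperplasia at week 6 of age, adenoma or mammary intraepithelial neoplasia at week 8, early carcinoma at week 10 and late carcinoma at week 12, and all of it is called tumor here. Age-matched FVB mammary gland served as normal tissue at each of these weeks. With 3 tumors and 3 normal glands at each of 4 weeks, each from its own mouse, there were 24 libraries in 8 groups.

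A miRNA is cut from a hairpin precursor, and either arm of the hairpin, named 5p and 3p, can give a mature miRNA of about the length of the sequences shown here. Bases 2 to 8 of the mature miRNA, the seed, pair with the messenger RNAs it silences, so that miRNAs with the same seed share much of their predicted target range. The hairpin of miR-214 and a copy of the miR-199a hairpin are processed from a long non-coding RNA, Dnm3os. Dnm3os is transcribed opposite to the dynamin gene Dnm3 and is known to be activated by the transcription factor Twist1 in mesenchymal cells. In fibroblasts and in fibrotic tissue these miRNAs are known for their links to matrix production and to the myofibroblast state.

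The mature sequences are shown to make clear which reads the 3 names can share. They are RefSeq sequences of build GRCm38.p6 and are written from 5′ to 3′ with the seed in capitals.
miR-199a-5p: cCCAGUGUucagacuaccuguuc
miR-199a-3p: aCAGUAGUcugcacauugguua
miR-199b-3p: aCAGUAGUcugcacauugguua
miR-214-5p: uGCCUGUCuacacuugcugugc
miR-214-3p: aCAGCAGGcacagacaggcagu

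The 3p miRNAs of miR-199a and miR-199b are identical over all 22 bases. For the 5p arm of miR-199b, the stretch of its hairpin most like miR-199a-5p is shown next, with the base that differs in capitals.
miR-199b hairpin, 5p arm: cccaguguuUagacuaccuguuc
This stretch has 22 of 23 bases in common with miR-199a-5p, the difference being C10U, counted from 1 at the 5′ end of miR-199a-5p with the base of miR-199a-5p first, and the seed is the same. The counts were given per miRNA name, with both arms and all gene copies under it. A read of the 3p arm fits miR-199a and miR-199b equally well, and how such reads were shared between both names is not given in the sources used here, so the separate levels of miR-199a and miR-199b are uncertain. miR-214 shares no seed with either of them. Among the miRNAs of the RefSeq table, miR-761 has the same seed as miR-214-3p.
miR-761: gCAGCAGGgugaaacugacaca
miR-761 had 0 counts in all 24 libraries, where 3 counts, the limit that a count of 0 allows, correspond to 0.763 to 2.91 CPM, the counts of a miRNA scaled to a common library size.

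The name miR-199a covers 2 hairpins in the mouse genome and the other names 1 each, and all 4 hairpins were found by exact match in the mm9 assembly. Mir199a-2 lies at chr1:164147945-164148054 and Mir214 at chr1:164153499-164153608, both on the plus strand in an exon of Dnm3os and opposite to an intron of Dnm3, with 5444 bases between them. Mir199a-1 lies at chr9:21300939-21301008 on the minus strand, opposite to an intron of Dnm2. Mir199b lies at chr2:32173980-32174089 on the plus strand, opposite to an intron of Dnm1. Each hairpin is thus antisense to a dynamin gene, and miR-214 shares its host transcript with 1 of the 2 copies of miR-199a.

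A normal library held 1626022 to 3931375 counts in all, and a tumor library 1032241 to 2213972. The members were counted well above the detection limit, with 12896 to 35627 counts of miR-199a, 7739 to 21268 of miR-199b and 1413 to 3653 of miR-214 in a normal library. In tumor libraries the counts ran from 2461 to 10707, from 1273 to 5184 and from 262 to 1253. Levels are CPM after TMM normalization over all libraries. Tumor and normal were compared week by week with edgeR's quasi-likelihood test, and a Benjamini-Hochberg adjusted p-value under 0.05 over the 237 tested miRNAs was called.

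All 3 members were under-expressed in tumor at every week, and for each of them every tumor library was below every normal library over the whole course. Averaged over the weeks, the level in tumor was 2.13-fold lower for miR-199a, 2.38-fold lower for miR-199b and 1.89-fold lower for miR-214. Under-expression was common in these data, since 29.5%, 13.5%, 27.4% and 21.5% of the tested miRNAs were called lower in tumor at weeks 6, 8, 10 and 12, and 46.8% were called lower in the mean over weeks. A complete separation in this direction, with all 12 tumor libraries below all 12 normal libraries, was seen for 9.7% of the tested miRNAs. Within single weeks, every tumor was below every normal gland for 34.6%, 19.8%, 31.6% and 28.7% of them at weeks 6, 8, 10 and 12.

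miR-199a was the member with the highest level. At week 6 it had 8655, 8094 and 8873 CPM in the normal glands and 4486, 3880 and 4741 CPM in the tumors, in the order of replicates 1, 2 and 3. At week 8 it had 8348, 8571 and 7404 CPM in normal glands and 4812, 2893 and 4802 CPM in tumors. The lowest normal gland of each of these weeks was above the highest tumor. At week 10 the values were 9143, 8077 and 8181 CPM in normal glands and 4728, 3897 and 3739 CPM in tumors. At week 12 they were 9505, 8960 and 11982 CPM in normal glands and 4200, 4852 and 2576 CPM in tumors. The last pair, from replicate 3 of week 12, holds the highest normal gland and lowest tumor of the series for this miRNA in CPM. As a share of all counts, the highest normal gland was replicate 3 of week 6 (0.982% against 0.964%). The lowest tumor by share was replicate 2 of week 8 (0.2384% against 0.2385%). The log2 fold change of tumor over normal was -0.96, -0.99, -1.05 and -1.41 in the order of the weeks (standard errors 0.14, 0.25, 0.15 and 0.29), with adjusted p of 0.00184, 0.0209, 0.00111 and 0.00604 in edgeR's test (n = 3 per group). Without normal replicate 2 of week 8 the log2 fold change of that week was -0.995 and no longer called (adjusted p = 0.0507 in edgeR). Over the weeks together it was -1.09 (standard error 0.10, adjusted p = 1.36e-08 in edgeR).

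**Figure D1:**
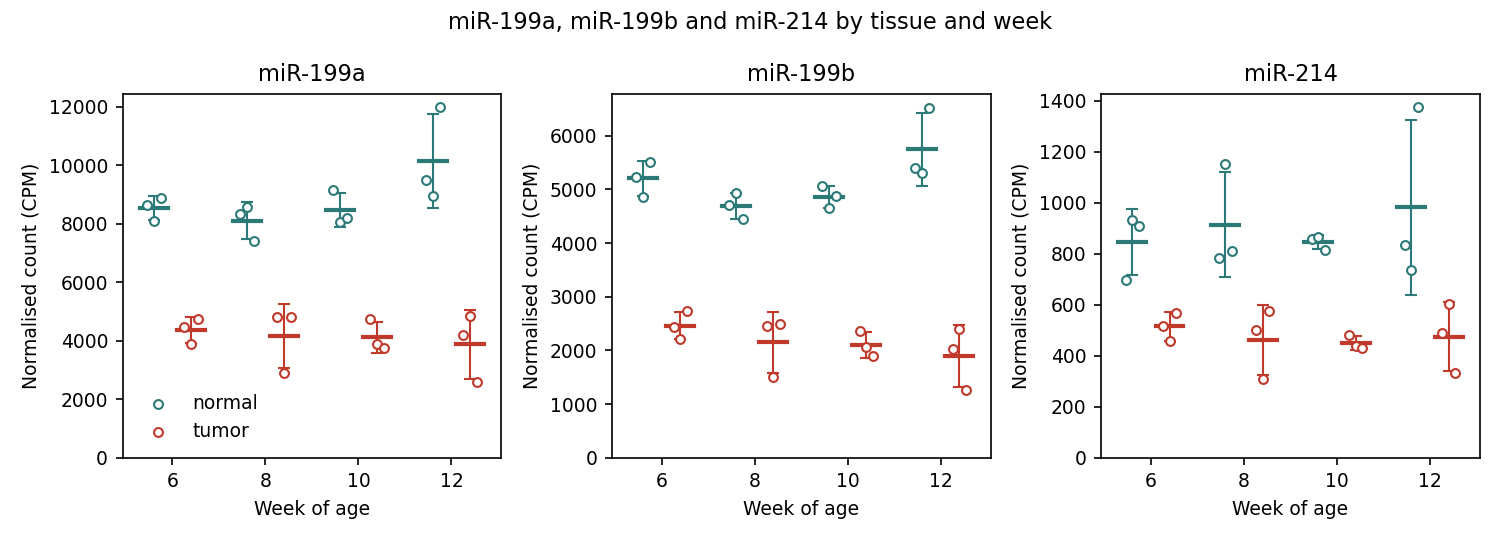
Normalised counts in CPM of miR-199a, miR-199b and miR-214 by week of age, with normal glands in green and tumors in red, each circle a library and bars the mean ± SD of 3 libraries. In every panel all tumor libraries lie below all normal libraries, with the closest approach for miR-214 (601.5 CPM in a tumor against 699 CPM in a normal gland).

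miR-199b followed miR-199a at a lower level and had the largest tumor-normal difference of the members at each week. At week 6 it had 5235, 4867 and 5515 CPM in normal glands and 2440, 2218 and 2729 CPM in tumors. At week 8 it had 4711, 4932 and 4443 CPM in normal glands and 2463, 1497 and 2488 CPM in tumors. As for miR-199a, the tumor of replicate 2 was the low one of that week. At week 10 it had 5069, 4658 and 4874 CPM in normal glands and 2366, 2071 and 1889 CPM in tumors. At week 12 it had 5404, 5304 and 6524 CPM in normal glands and 2034, 2391 and 1271 CPM in tumors. The groups did not overlap at any week, and the normal glands stayed within a narrow range up to week 10. The log2 fold changes were -1.08, -1.16, -1.22 and -1.62 in the same order (standard errors 0.15, 0.25, 0.14 and 0.27), with adjusted p of 0.00135, 0.0114, 4.65e-04 and 0.00287 in edgeR's test. The mean over weeks was -1.25 (standard error 0.10, adjusted p = 1.24e-09 in edgeR), and every fit without 1 library still called miR-199b at every week.

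miR-214 was counted less than the others and varied more between normal glands. At week 6 it had 699, 934 and 911 CPM in normal glands and 519, 459 and 569.5 CPM in tumors. At week 8 it had 782, 1152 and 811 CPM in normal glands and 502, 308 and 575 CPM in tumors. The normal gland of replicate 1 at week 6 came closest to the tumors. At week 10 the normal glands had 858, 867 and 815 CPM and the tumors 483, 440.0 and 431 CPM. At week 12 the normal glands had 834, 737 and 1376 CPM and the tumors 492, 602 and 332 CPM. Week 10 thus had the smallest spread in both tissues, and week 12 the largest in normal glands, where replicate 3 stood far above the other glands. The log2 fold changes were -0.72, -1.005, -0.92 and -1.08 by week (standard errors 0.19, 0.30, 0.14 and 0.34), with adjusted p of 0.0176, 0.0355, 0.00157 and 0.0331 in edgeR's test. The mean over weeks was -0.91 (standard error 0.13, adjusted p = 2.81e-06 in edgeR).

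The call of miR-214 was kept at week 10 in all 6 fits without 1 library, and was lost in 4 of 6 such fits at week 6, in 5 of 6 at week 8 and in 4 of 6 at week 12. At week 6 the call was lost without tumor replicate 1, 2 or 3 or normal replicate 2, with adjusted p of 0.0654, 0.0909, 0.0506 and 0.0619 in edgeR. At week 8 it was lost without tumor replicate 1 or 2 or normal replicate 1, 2 or 3, with adjusted p of 0.0818, 0.0928, 0.0540, 0.107 and 0.0619 in edgeR. At week 12 it was lost without tumor replicate 1, 2 or 3 or normal replicate 3, with adjusted p of 0.0650, 0.0548, 0.109 and 0.0792 in edgeR. The direction was lower in tumor in all of these fits, and the call in the mean over weeks was kept in all 24 fits without 1 library.

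**Figure D2:**
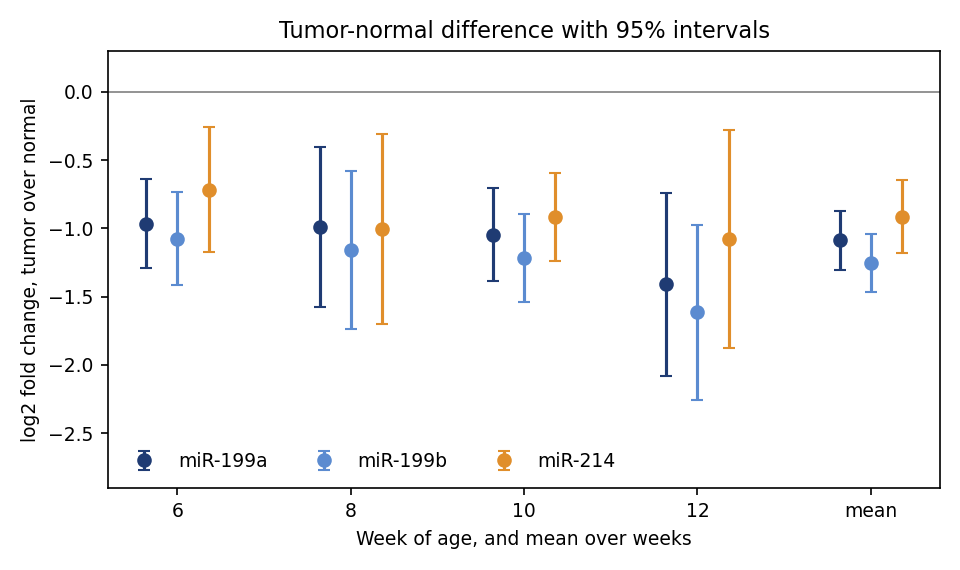
Log2 fold change of tumor over normal for miR-199a, miR-199b and miR-214 at each week and in the mean over weeks, with 95% intervals from edgeR's fit and a line at 0. All intervals lie below 0, and those of week 12 are among the widest, from -2.25 to -0.98 for miR-199b and from -1.87 to -0.28 for miR-214.

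Each mean level of normal glands ranked above each mean level of tumors for all 3 members. The order within a tissue depends on the scaling. With library sizes only, the log2 change of normal glands from week 6 to week 12 was negative (-0.06, -0.16 and -0.12 for miR-199a, miR-199b and miR-214). For miR-199a the order was normal week 12 (10149 ± 1610 CPM, SD, n = 3), week 6 (8541 ± 402), week 10 (8467 ± 588) and week 8 (8107 ± 620), followed by tumor week 6 (4369 ± 442), week 8 (4169 ± 1105), week 10 (4121 ± 531) and week 12 (3876 ± 1172). Among neighbours in this order, the step from normal to tumor was 6.03 times the larger of the SDs, and the next largest, between normal glands of week 12 and week 6, was within 1 SD although their libraries did not overlap. For miR-199b the same order held, from 5744 ± 678 CPM in normal glands of week 12 to 1898 ± 572 CPM in tumors of week 12, with overlapping libraries between all neighbours of the same tissue. For miR-214 the normal glands lay between 847 ± 28.0 CPM at week 10 and 982 ± 344 CPM at week 12, and the tumors between 452 ± 27.9 CPM at week 10 and 516 ± 55.6 CPM at week 6, again with overlap between all neighbours of the same tissue.

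The weeks themselves left smaller differences, and none of them was called. From week 6 to week 12 the level in tumors changed by a log2 value of -0.17 for miR-199a (95% interval -0.60 to 0.26), -0.38 for miR-199b (-0.79 to 0.04) and -0.12 for miR-214 (-0.65 to 0.42), with adjusted p of 0.597, 0.226 and 0.785 in edgeR. In the same test, 7.59% of the tested miRNAs were called in tumors. In normal glands the change over these weeks was 0.25 for miR-199a (95% interval -0.18 to 0.68), 0.14 for miR-199b (-0.27 to 0.56) and 0.21 for miR-214 (-0.32 to 0.75), with adjusted p of 0.450, 0.667 and 0.624 in edgeR, where 21.1% of the tested miRNAs were called. The tumor-normal difference itself changed from week 6 to week 12 by -0.42 for miR-199a (95% interval -1.03 to 0.19), -0.52 for miR-199b (-1.10 to 0.07) and -0.33 for miR-214 (-1.09 to 0.43), with adjusted p of 0.448, 0.426 and 0.574 in edgeR, and 0.422% of the tested miRNAs were called. Whether the difference varied over the 4 weeks in any way was tested as well, with adjusted p of 0.938, 0.938 and 0.971 in edgeR and 0% of miRNAs called, or 3.8% at an unadjusted p under 0.05. The intervals leave room for a widening of the difference by more than 1 log2 unit. Single libraries of week 12 moved these changes without making a call. Without normal replicate 3 of week 12, the change of the difference was -0.28 for miR-199a, -0.42 for miR-199b and -0.0078 for miR-214, and without normal replicate 2 of week 12 it was -0.67, -0.74 and -0.67. Without tumor replicate 3 of week 12, the change in tumors was 0.11 for miR-199a, -0.09 for miR-199b and 0.14 for miR-214. Without tumor replicate 2 of week 12, it was -0.37, -0.58 and -0.32. Without normal replicate 2 of week 12, the change in normal glands was 0.57, 0.43 and 0.62, and without normal replicate 3 of week 12 it was 0.15, 0.08 and -0.07.

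Since all 3 members fell, their ratios within a library show whether they fell equally, and such ratios do not depend on the normalization. The ratio of miR-199a to miR-199b reads was higher in tumor, that of miR-199a to miR-214 was lower, and that of miR-199b to miR-214 was lower still. Tumor and normal were compared over the 4 weeks by an exact permutation test that exchanges labels within weeks (160000 arrangements, two-sided), and p-values were adjusted over the 3 ratios.

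There were 1.61 to 1.66 miR-199a reads for each miR-199b read in normal glands of week 6 and 1.74 to 1.84 in tumors. At week 8 the ratio was 1.67 to 1.77 in normal glands and 1.93 to 1.95 in tumors, at week 10 it was 1.68 to 1.80 and 1.88 to 1.998, and at week 12 it was 1.69 to 1.84 and 2.03 to 2.07. The libraries of the tissues were apart at every week, although 2 of the 3 tumors of week 6 lay within the range of the normal glands of week 12. The mean difference was 0.17 on the log2 scale (standard error 0.017, adjusted p = 3.75e-05 in the exact permutation test, whose raw p of 1.25e-05 is the smallest it allows), or 1.12-fold, and the ratio was higher in the tumor of all 12 same-numbered pairs of a week. The standard error from counting alone was at most 0.050 log2 units in a single library. In a comparison of weeks made after the ratios were seen, the ratio was also higher at week 12 than at week 6, by 0.20 in tumors and by 0.10 in normal glands, without overlap between weeks in either tissue, and with 3 libraries against 3 the exact permutation p was 0.1 for each, the smallest this design allows. As the shared 3p reads stand under both names by an unknown rule, this ratio does not give the ratio of the precursors.

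The ratio of miR-199a to miR-214 ranged from 7.44 to 12.4 in normal glands (median 9.89) and from 7.76 to 9.78 in tumors (median 8.59). The mean difference was -0.19 on the log2 scale (standard error 0.070, adjusted p = 0.0164 in the exact permutation test), with lower ratios in tumors at 3 of 4 weeks and in 11 of 12 same-numbered pairs. For miR-199b to miR-214 the range was 4.28 to 7.49 in normal glands (median 5.95) and 3.83 to 4.91 in tumors (median 4.71). Here the difference was -0.36 (standard error 0.073, adjusted p = 2.63e-04 in the exact permutation test), with lower ratios in tumors at all 4 weeks. The ranges of tumor and normal overlapped in both cases. Over the weeks together, miR-214 thus fell less than miR-199b and, by a smaller margin that was absent at week 8 (0.01), less than miR-199a.

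**Figure D3:**
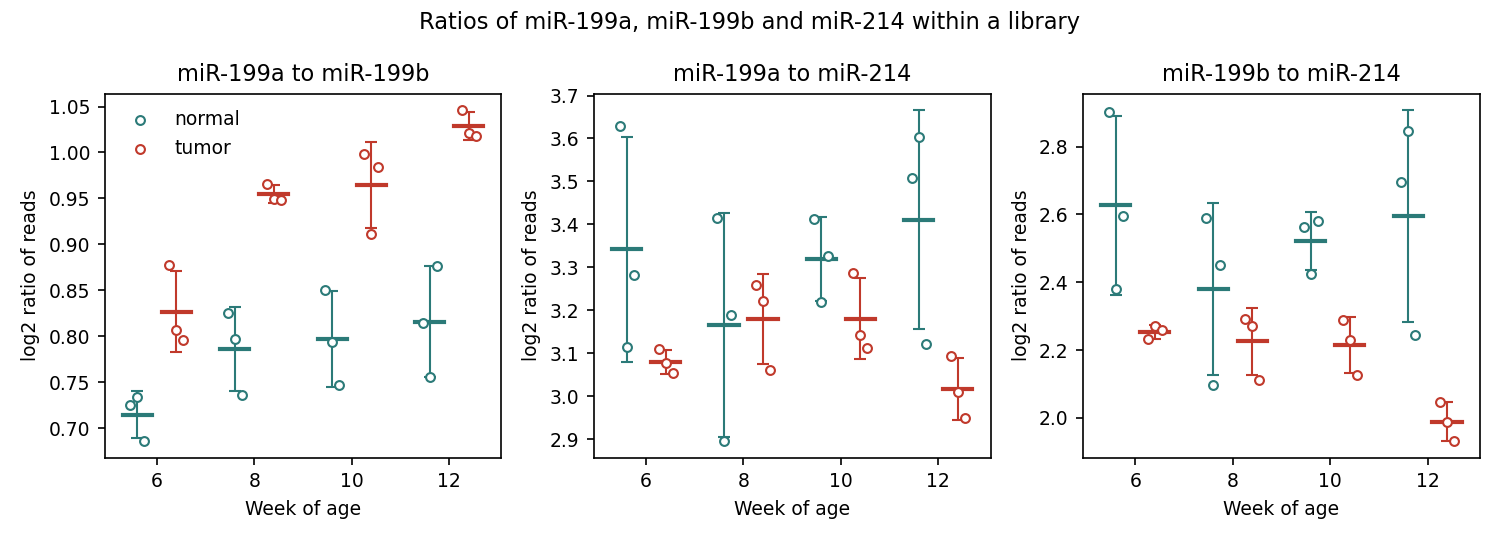
Log2 ratios of reads between miR-199a, miR-199b and miR-214 in each library by week of age, normal glands in green and tumors in red, with bars for the mean ± SD of 3 libraries; the axes do not start at 0. In the left panel the tumors lie above the normal glands at each week, and in the right panel the mean of the tumors lies below that of the normal glands at each week.

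The members also varied together between mice. Around the mean of its group, miR-199a was on the same side as miR-214 in 12 of 12 tumors and 8 of 12 normal glands, and on the same side as miR-199b in 11 of 12 libraries of either tissue. Among the tumors, log2 CPM of miR-199a and miR-214 had a Pearson r of 0.94 and a Spearman rho of 0.92 (n = 12, adjusted p = 6e-05 and 4.2e-04 in a permutation test over 6 relations), and r was 0.85 without the 2 tumors farthest from the median. The same values for miR-199b and miR-214 were 0.92 and 0.87 (adjusted p = 2.25e-04 and 7.6e-04 in the permutation test), and 0.78 without the farthest tumors. miR-199a and miR-199b had 0.97 and 0.86 in tumors (adjusted p = 6e-05 and 9.6e-04 in the permutation test), with 0.85 without the farthest ones. These libraries share the scaling of all miRNAs in a library, which moves the members together, and pairs of miR-199a and miR-199b also share reads.

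In normal glands the relation held between miR-199a and miR-199b, with r of 0.95 and rho of 0.91 (n = 12, adjusted p = 8e-05 and 4.2e-04 in the permutation test) and 0.80 without the 2 farthest glands. For miR-199a and miR-214 it was not shown, with r of 0.60 and rho of 0.15 (adjusted p = 0.0692 and 0.652 in the permutation test), and r was -0.14 without the 2 farthest glands. For miR-199b and miR-214, r was 0.53 and rho 0.22 (adjusted p = 0.0877 and 0.601 in the permutation test), and r was -0.19 without them. With deviations from the mean of the week in place of log2 CPM, r of these last relations was 0.72 and 0.71. Both had an adjusted p of 0.00987 in the permutation test. That test exchanged values across weeks although the week means had been removed, so this p is likely too small. Without the 2 farthest glands r was 0.32 and 0.35, so these relations rest on those glands. The SD of the log2 ratio of miR-199a to miR-214 within a group was 0.098 to 0.26 in normal glands and 0.027 to 0.11 in tumors. Whether the relation differs between the tissues was not tested.

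**Figure D4:**
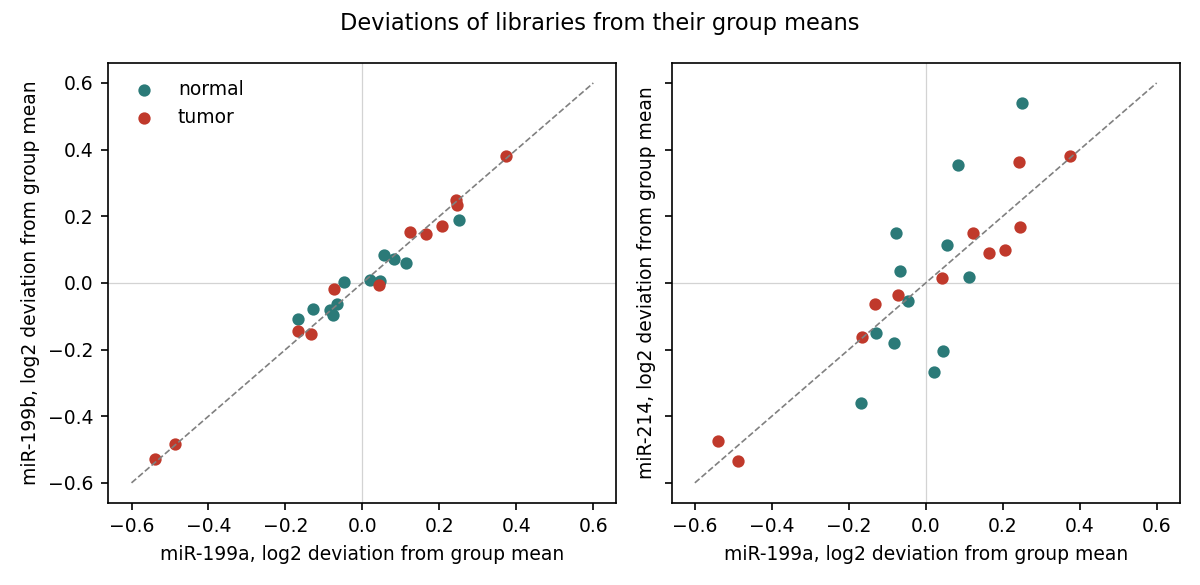
Deviation of each library from the mean of its group, on the log2 scale, of miR-199b (left) and miR-214 (right) against miR-199a, with normal glands in green, tumors in red and a dashed line of equal deviation. Tumors follow the line in both panels, while normal glands scatter around it for miR-214, where miR-214 and miR-199a are on the same side of their means in 8 of 12 glands.

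The 5 tested miRNAs whose deviations from the group means were most like those of the members over the 24 libraries were miR-10b, miR-125b, miR-497, miR-10a and miR-100. Their mean Pearson r with the 3 members was 0.73, 0.71, 0.67, 0.67 and 0.65, against a median of -0.01 over the other 234 tested miRNAs. Within normal glands alone it was 0.38, 0.73, 0.66, 0.48 and 0.59, and within tumors 0.85, 0.82, 0.75, 0.76 and 0.73. Between the members themselves r of these deviations was 0.99 for miR-199a and miR-199b, 0.84 for miR-199a and miR-214, and 0.83 for miR-199b and miR-214. These values describe libraries that share depth and scaling, and no test was made. All 5 were called lower in tumor in the mean over weeks, as were 46.8% of all tested miRNAs. miR-10b and miR-10a, which lie in the Hox gene clusters, had log2 fold changes of -1.83 (standard error 0.14) and -1.04 (0.15), with adjusted p of 4.83e-10 and 3.77e-06 in edgeR. miR-125b and miR-100, which are found in shared clusters, had -1.16 (standard error 0.13) and -1.13 (0.10), with adjusted p of 8.72e-08 and 3.49e-09 in edgeR. miR-497, of the miR-15 and miR-16 family, had -0.75 (standard error 0.10, adjusted p = 1.54e-06 in edgeR).

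The members were set beside lists of miRNAs linked to fibroblasts and smooth muscle, to an imprinted domain and to other cell types. These lists were chosen with earlier results of these data known. The counts and medians given for them below therefore describe the lists and are no independent support. Of 10 miRNAs linked to fibroblasts and smooth muscle, 8, 8, 9 and 9 were called lower in tumor at weeks 6, 8, 10 and 12 and 0 higher. Over all tested miRNAs, 29.5%, 13.5%, 27.4% and 21.5% were called lower at these weeks. The median log2 fold change of this list in the mean over weeks was -1.19, where all tested miRNAs had a median of -0.15. miR-143, a smooth muscle miRNA and the most abundant of this list, had -1.22 (standard error 0.12, adjusted p = 1.23e-08 in edgeR), so its value lies between those of miR-199a and miR-199b. The next list held 10 miRNAs from the imprinted Dlk1-Dio3 domain, which is active in mesenchymal cells. Of these, 10, 1, 5 and 1 were called lower at weeks 6, 8, 10 and 12, against the weekly shares given above. At these weeks 0 of them were called higher, and the medians were -1.31, -0.55, -0.71 and -0.38. The most abundant of them, miR-127, had -0.74 in the mean over weeks (standard error 0.15, adjusted p = 1.63e-04 in edgeR). miR-126, the endothelial miRNA, was called lower at all 4 weeks and had -1.25 in the mean (standard error 0.14, adjusted p = 9.14e-08 in edgeR).

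Most epithelial miRNAs moved the other way. Of 10 listed, 8 were called higher in tumor at every week, against 29.1%, 21.9%, 32.9% and 29.1% of all tested miRNAs, with a median log2 fold change of 2.03 in the mean over weeks, and the most abundant, miR-182, had 2.02 (standard error 0.093, adjusted p = 5.58e-13 in edgeR). The other two, named after their values were seen, were miR-203 with -0.70 (adjusted p = 0.00756 in edgeR) and miR-205 with 0.29 (adjusted p = 0.333 in edgeR). The summed level of the epithelial list was 15327 to 30652 CPM in normal glands and 57013 to 98241 CPM in tumors, without overlap. That of the fibroblast and smooth muscle list was 316063 to 557612 CPM in normal glands and 113453 to 213996 CPM in tumors, also without overlap. Most of this sum came from miR-143 and miR-10b. Their means were 199603 and 146884 CPM in normal glands and 85522 and 43204 CPM in tumors. The fall of the members thus came with a lower summed level of the first list and a higher one of the epithelial list, and the part of tissue makeup in it was not tested. In bulk tissue such as this, fewer cells of a type and less of a miRNA per cell cannot be told apart.

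Markers of other tissues that a mammary dissection can hold moved with the tissues to different degrees. Of the 6 blood miRNAs, 5 were tested, and 2, 1, 2 and 4 were called lower in tumor at weeks 6, 8, 10 and 12, where 29.5%, 13.5%, 27.4% and 21.5% of all tested miRNAs were. miR-486, the most abundant, had 14827 ± 8481 CPM in normal glands and 6465 ± 3365 CPM in tumors (SD, n = 12). miR-223 was at 0 in every library. Of the 510 miRNAs listed by the authors, 364 had at least 1 count, and why miR-223 had none was not tested. Of the 3 adipocyte miRNAs, 0, 0, 1 and 1 were called lower and 1, 0, 0 and 0 higher. Of all tested miRNAs, 29.1%, 21.9%, 32.9% and 29.1% were called higher at these weeks. In the mean over weeks, 4 of the 5 tested blood miRNAs and 2 of the 3 adipocyte miRNAs were called lower. That compares with 46.8% of all tested miRNAs. The median log2 fold changes were -1.23 for blood and -0.38 for adipocyte miRNAs. miR-378, the most abundant adipocyte miRNA, had -1.20 (standard error 0.31, adjusted p = 0.00147 in edgeR). The others of this list, named after their values were seen, differed from it. miR-365 had -0.38 (adjusted p = 0.0188 in edgeR) and miR-193b had 0.36 (adjusted p = 0.0564 in edgeR). Of the 4 skeletal muscle miRNAs, 3 were tested, and 0, 1, 0 and 3 were called lower and 0 higher. The weekly shares of all tested miRNAs are those given here beside the blood and adipocyte counts. All 3 tested muscle miRNAs were called lower in the mean over weeks. Their median log2 fold change was -2.02, -2.25, -1.67 and -6.19 at weeks 6, 8, 10 and 12 and -3.16 in the mean over weeks. Their summed level ran from 89.0 to 89345 CPM in normal glands (median 524) and from 39.9 to 18079 CPM in tumors (median 339), and its part in the difference of the members was not tested. This sum was farthest above the mean of its group in normal replicate 3 of week 10, by 5.72 log2 units. There miR-199a, miR-199b and miR-214 deviated by -0.05, 0.00 and -0.05. Next came tumor replicate 3 of week 10 with 5.32, where the members deviated by -0.13, -0.15 and -0.06. In normal replicate 1 of week 12 the sum was 4.05 above, and the members deviated by -0.08, -0.08 and -0.18. In normal replicate 1 of week 6 it was 3.82 above, with 0.02, 0.01 and -0.27 for the members. These libraries were singled out for their high sums once the values were known, and a relation over all libraries was not tested.

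**Figure D5:**
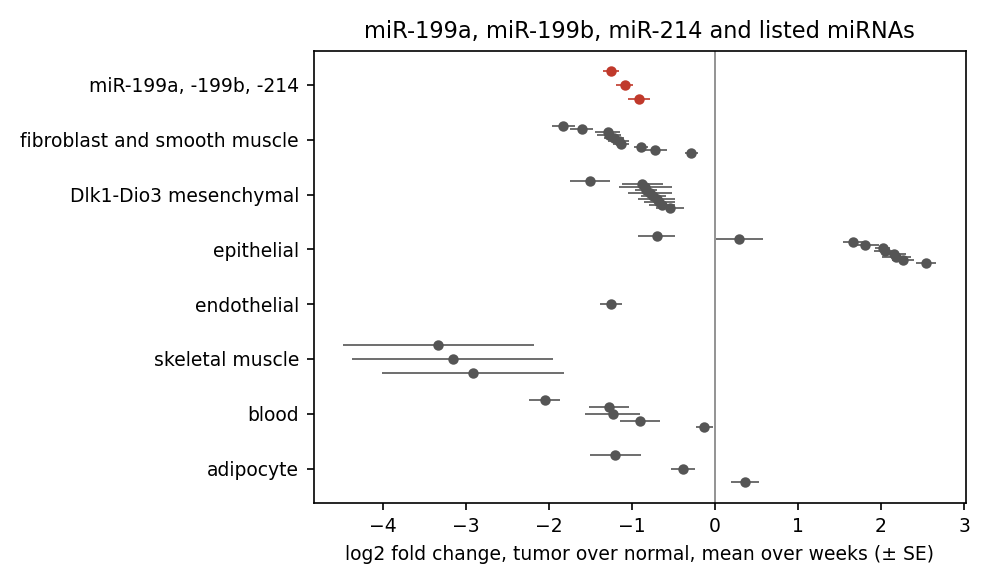
Log2 fold change of tumor over normal, mean over weeks, for miR-199a, miR-199b and miR-214 (red) and each tested miRNA of 7 lists (grey). The lists are of cell types or, for Dlk1-Dio3, of a genomic domain. Bars are standard errors, and a line marks 0. The members lie between -1.25 and -0.91, within the range of the fibroblast and smooth muscle list (-1.83 to -0.29). They also lie within the ranges of the Dlk1-Dio3 list (-1.51 to -0.55) and the blood list (-2.05 to -0.13). Of 10 epithelial miRNAs, 8 lie above 1.

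The sequencing lane, which the labels give, was shared by tumors and normal glands of every week. Each lane held 6 libraries of either tissue. Lane 1 held replicates 1 and 2 of weeks 6 and 8 and replicate 1 of weeks 10 and 12, and lane 2 held the others. At each week 1 of the lanes thus held 1 tumor and 1 normal gland. Comparisons of week 12 with week 6, also those of the ratio of miR-199a to miR-199b, are partly confounded with lane. Within lane 1 the mean tumor-normal difference over weeks was -1.08, -1.24 and -0.90 on the log2 scale for miR-199a, miR-199b and miR-214, and within lane 2 it was -1.04, -1.22 and -0.82, lower in tumor at all 4 weeks in each case. The log2 ratio of miR-199a to miR-199b was higher in tumor by 0.16 within lane 1 and by 0.18 within lane 2.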

How the data were processed

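Small RNA libraries (Illumina TruSeq) of mammary tumors and normal glands were sequenced. The authors removed barcode and adaptor, aligned reads of 17 to 27 bases with Bowtie, counted reads overlapping more than 50% of a miRBase miRNA and deposited these counts without normalization. The paper names mm10, while the submitters' processing notes and labels name mm9. Groups, weeks, replicate numbers and lanes came from the sample labels.

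edgeR 4.0.16 in R 4.3.3 was used with filterByExpr over the 8 groups, TMM and the quasi-likelihood test, week by week, and in a fit of all 24 libraries for the mean over weeks, changes between weeks and interactions. The standard error is the log2 fold change divided by the square root of F. CPM were not offset, log2 CPM used a prior count of 2, and ratios had 2 added to both counts. Correlations used 100000 resamples. Python 3.11.15, numpy 2.4.6, scipy 1.17.1 and matplotlib 3.10.9 served for these and the plots. The procedures were tested on simulated data.

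The miRNAs named were the members, miRNAs sharing a seed with them, the 5 most like them, and the most abundant of each list. Some others of the lists were added after their values were seen. The members and lists were chosen with earlier results of these data known. Total counts limit the precision of a library to counting error, which for amplified reads is a lower bound, and 3 replicates limit it further.

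The alternatives replaced TMM by DESeq2 size factors, by plain library sizes or by TMM factors computed without the members, and the test by DESeq2 1.42.0 (Wald, or likelihood ratio over weeks) or edgeR's classic exact test. Others dropped the filter, required 10 counts in each library, fitted all libraries at once, added the replicate number or the lane to the model, changed the prior count, or left out a library. The messenger RNA data were not analysed here.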

Additional observations from a re-analysis of the deposited data

How the results depend on the processing

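The tumor-normal differences of the members stayed lower in tumor under the 10 alternatives run for each week and the 8 run for the mean over weeks, and in every fit without 1 library. In the mean over weeks all 3 were called under those 8 and in those fits. The 3 ratios kept their direction and call under the 3 alternatives run for them (prior count 0.5, no prior count and the replicate block). Calls were lost for miR-214 with library sizes only at week 8 (-1.13, adjusted p = 0.0626 in edgeR) and week 12 (-0.86, adjusted p = 0.0554 in edgeR), and with the classic exact test at week 6 (-0.72, adjusted p = 0.0512 in edgeR). The cause was not tested. Without 1 library, the log2 fold change of miR-214 ranged from -0.84 to -0.57 at week 6, from -1.10 to -0.77 at week 8 and from -1.28 to -0.74 at week 12, and that of miR-199a at week 8 from -1.11 to -0.75. With deviations from the week mean, the correlations with miR-214 in normal glands rose to 0.72 for miR-199a and 0.71 for miR-199b.

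With library sizes only, the median log2 fold change of all tested miRNAs moved from -0.12 to -0.26 at week 6, from -0.09 to -0.22 at week 8 and from -0.19 to -0.01 at week 12, and the changes of the members are larger than each of these. The changes from week 6 to week 12 in normal glands were not called under any alternative and turned negative with library sizes only for all 3 members (-0.06, -0.16 and -0.12).

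Tumors and normal glands share replicate numbers, but the labels do not pair them, and the deviations of same-numbered libraries correlated above 0.1 in 10 of 12 pairs, with r from 0.03 to 0.82. The replicate block changed no call of the members, with mean differences of -1.11, -1.27 and -0.91 for miR-199a, miR-199b and miR-214 (highest adjusted p = 1.73e-04 in edgeR). It moved the calls over all miRNAs at week 8 from 52 higher and 32 lower to 63 and 68, and DESeq2 called 50 and 50. For week 12 against week 6 in tumors, 10 miRNAs were called higher and 8 lower. These counts were 8 and 2 with no filter, 4 and 11 with at least 10 counts in every library, 10 and 3 with library sizes only, 17 and 8 with DESeq2 size factors, and 19 and 11 with DESeq2. In normal glands they were 13 and 37, against 2 and 43 with library sizes only and 5 and 23 with at least 10 counts. For the change of the difference from week 6 to week 12, 1 miRNA was called, and 0 to 3 under the alternatives.

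miR-214 has the fewest counts of the members, and its calls at weeks 6, 8 and 12 depend on single libraries. The rule that divides 3p reads between miR-199a and miR-199b limits what their ratio means.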
